A study of Mus musculus with 2 samples.

Results

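Bcl11a, Sox6, Zbtb7a and Myb encode 4 transcription factors that act in the globin switch, the change from embryonic to adult haemoglobin during development. They were chosen by name for that known role and not by a cut on their values, although earlier results of these data were known. They make up 4 of the 32285 genes in the count tables. Their levels were followed through 4 marker-gated stages of erythroid maturation and in other cell classes of the fetal liver, and the knockout library was set against the wild-type library. Single-cell transcriptomes came from livers of E14.5 mouse embryos (strain CD1 in the labels), depleted of lineage-positive cells and sorted for LSK cells, which lack lineage markers and carry SCA1 and cKIT. The WT library was made from a pool of 2 IκBα WT embryos and the KO library from a pool of 3 IκBα KO embryos, from a line with a targeted knock-out of Nfkbia, the gene of IκBα. The titles of the samples speak of LT-HSCs and their cell type entries of LSK cells. There was 1 library per genotype, so no difference between genotypes could be tested.

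BCL11A is a zinc finger repressor that silences embryonic globin genes in mice and fetal globin genes in humans, and in other blood lineages it is needed for lymphoid and dendritic cells. SOX6, an HMG box factor, binds embryonic globin promoters in definitive erythroid cells and acts there with BCL11A, and ZBTB7A (LRF) is a further zinc finger repressor of the same globin genes that also recruits the NuRD complex. MYB keeps haematopoietic progenitors dividing, is known to activate BCL11A and KLF1 in erythroid progenitors, and is shut down as these cells mature.

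The 4 genes are protein-coding and lie on 3 chromosomes of GRCm38. Bcl11a (ENSMUSG00000000861) covers chr11:24078056-24174123 on the plus strand and Sox6 (ENSMUSG00000051910) chr7:115470872-116038796 on the minus strand. Zbtb7a (ENSMUSG00000035011) covers chr10:81135220-81152995 on the plus strand and Myb (ENSMUSG00000019982) chr10:21124935-21160984 on the minus strand. Promoters from RefSeq on GRCm38.p6, taken as the 250 bases before the annotated start, were searched on both strands for 3 short motifs. TGACCA is the core that BCL11A recognises, and 11.4% of 32851 promoters of this length held it. CCNCACCC, a site of the type that KLF1 recognises, was in 14.9% of promoters. AGATAA, the motif of GATA1, was in 9.99%. Of 7 globin promoters in the table, those of the embryonic genes Hbb-y and Hba-x held TGACCA, with its first base 86 and 40 bases before the start. The promoters of the adult genes Hbb-bs and Hbb-bt held CCNCACCC at 93 and 107 bases before the start. AGATAA lay at 210 bases in Hbb-bs and at 167 bases in Hbb-bh2. Among the regulators, Bcl11a had 1 CCNCACCC at 68 bases, and Zbtb7a had 1 at 105 bases beside AGATAA at 39 and, on the opposite strand, at 116 bases. For Sox6, 1 of 6 annotated promoters held CCNCACCC and AGATAA, and the Myb promoter held none of the 3 motifs. Hbb-bh1 had no entry. These matches describe letters only and show no binding. The promoters of the embryonic globins with TGACCA, of the main adult beta-globin gene and of 2 of the regulators are printed 5′ to 3′ on the strand of the gene, with the motifs in capitals. On Zbtb7a the first capital run is the reverse complement of AGATAA. Their positions are chr7:103853208-103853457 (Hbb-y, minus strand), chr11:32276350-32276599 (Hba-x, plus), chr7:103827929-103828178 (Hbb-bs, minus), chr11:24080445-24080694 (Bcl11a, plus) and chr10:81136021-81136270 (Zbtb7a, plus).
Hbb-y: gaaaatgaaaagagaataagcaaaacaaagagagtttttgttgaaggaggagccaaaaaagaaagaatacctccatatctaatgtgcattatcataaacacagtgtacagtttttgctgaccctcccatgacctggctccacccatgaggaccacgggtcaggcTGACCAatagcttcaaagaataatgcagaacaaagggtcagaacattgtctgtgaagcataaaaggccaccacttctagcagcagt
Hba-x: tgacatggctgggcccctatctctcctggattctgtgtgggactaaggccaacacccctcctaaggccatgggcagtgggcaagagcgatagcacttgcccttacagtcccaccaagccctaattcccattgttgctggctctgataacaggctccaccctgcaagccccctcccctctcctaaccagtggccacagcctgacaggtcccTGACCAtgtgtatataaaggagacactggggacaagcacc
Hbb-bs: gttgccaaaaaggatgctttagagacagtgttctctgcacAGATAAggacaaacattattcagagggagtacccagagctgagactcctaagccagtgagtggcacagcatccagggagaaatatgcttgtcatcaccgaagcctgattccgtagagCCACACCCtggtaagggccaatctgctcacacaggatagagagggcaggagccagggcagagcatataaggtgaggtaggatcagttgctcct
Bcl11a: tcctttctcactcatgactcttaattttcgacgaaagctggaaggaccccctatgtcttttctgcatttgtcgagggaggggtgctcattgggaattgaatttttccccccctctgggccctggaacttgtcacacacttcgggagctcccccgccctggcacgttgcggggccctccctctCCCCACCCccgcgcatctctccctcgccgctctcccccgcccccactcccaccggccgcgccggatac
Zbtb7a: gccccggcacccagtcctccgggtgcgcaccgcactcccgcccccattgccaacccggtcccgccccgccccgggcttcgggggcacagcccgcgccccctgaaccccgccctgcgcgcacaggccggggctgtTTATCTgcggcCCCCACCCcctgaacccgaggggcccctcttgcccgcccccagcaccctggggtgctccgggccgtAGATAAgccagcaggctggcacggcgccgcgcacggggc

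After filtering, 3458 WT and 4417 KO cells remained, with medians of 28065 and 19560 UMIs per cell (a UMI marks an original RNA molecule), and 7 cell barcodes were shared by the libraries. Nfkbia had 1478 UMIs in the WT and 7 in the KO library. Y-linked UMIs in the absence of Xist were seen in 0.116% of the WT cells and 17.4% of the KO cells, so sex and genotype cannot be told apart without a split of the KO library. Cells were gated on summed marker levels per cell that used neither the regulators nor any globin. Early erythroid progenitors had Gata1, Klf1 and Epor, late erythroid progenitors also Tfrc, Rhag, Hemgn and Mrap, and early and later erythroblasts had rising levels of a marker set that holds Slc4a1 and Alas2. The 4 stages held 456, 585, 360 and 329 WT cells and 536, 706, 642 and 488 KO cells. They are ranges of marker levels rather than cell types, and 10.9% of the 4102 erythroid cells lay within 25% of the cut between early and late progenitors, 3.998% near the erythroblast cut and 9.17% near the cut for later erythroblasts. Cells of all 4 stages largely lacked RNA of the sort marker Ly6a (SCA1), and those of the 2 erythroblast stages also largely lacked Kit. Kit had 57.4 CPM (counts of a gene relative to all UMIs of its class) in WT and 52.0 in KO early progenitors. It fell to 1.67 and 1.78 in later erythroblasts. Ly6a lay at 1.52 (WT) and 1.18 CPM (KO) in early progenitors, 0.425 and 0.786 in late progenitors, and 1.96 and 1.54 in early erythroblasts. Later erythroblasts had 0.607 and 0.137 CPM of Ly6a, against 25.6 and 32.7 in stem cell core cells. Haemoglobin took 8.84% (WT) and 9.72% (KO) of UMIs in early and 40.3% and 43.2% in later erythroblasts. CPM over all genes is therefore lowered in later erythroblasts, and CPM over non-haemoglobin UMIs is given beside it. The 95% intervals given here hold the error of counting molecules and none of the spread between embryos.

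Bcl11a rose from early to late progenitors and then fell. Its level was 165.6 CPM (159.9 to 171.4) in WT and 172.0 (165.6 to 178.5) in KO early progenitors, and 212.0 (206.4 to 217.7) and 216.4 (210.3 to 222.7) in late progenitors. Early erythroblasts had 139.7 and 140.8 CPM, and later erythroblasts 48.1 (42.95 to 53.7) and 52.6 (47.4 to 58.1). The peak was thus in late progenitors in both libraries, and no interval of a later stage reached into that of the peak. Without haemoglobin, later erythroblasts had 80.6 CPM in WT and 92.5 in KO, a log2 ratio to early progenitors of -1.04 (-1.21 to -0.87) and -0.90 (-1.05 to -0.74). In molecules per cell, Bcl11a went from 9.38 UMIs in WT late progenitors to 0.964 in WT later erythroblasts, and from 6.63 to 0.785 in KO.

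Sox6 went the other way. It had 29 UMIs in WT and 39 in KO early progenitors, 1.52 CPM (1.02 to 2.18) and 2.42 CPM (1.72 to 3.31). Late progenitors had 11.6 and 11.3 CPM, early erythroblasts 54.7 and 53.4 CPM, and later erythroblasts 100.9 (93.4 to 108.9) and 98.1 CPM (91.1 to 105.6). Each stage lay above the one before it, with intervals that did not overlap in either library. Without haemoglobin, later erythroblasts exceeded early progenitors by 111.3-fold in WT and 71.3-fold in KO, on log2 6.80 (6.26 to 7.39) and 6.16 (5.69 to 6.66). The rise was also a rise in molecules, from 0.0636 to 2.02 UMIs per cell in WT and from 0.0728 to 1.47 in KO, although later erythroblasts held the fewest non-haemoglobin UMIs of the 4 stages. The low level of early progenitors stood beside 0.734 (WT) and 1.74 CPM (KO) in the stem cell core, and the part of free RNA in it was not tested.

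Zbtb7a rose by less. Early progenitors had 55.6 CPM (52.3 to 59.0) in WT and 63.3 (59.5 to 67.3) in KO, late progenitors 99.7 and 108.5, and early erythroblasts 119.1 and 118.6. Later erythroblasts had 132.8 (124.1 to 141.9) and 132.7 (124.5 to 141.3) CPM, and in WT this interval overlapped that of early erythroblasts. Without haemoglobin the last step was clearer, from 130.7 to 222.4 CPM in WT and from 131.4 to 233.5 in KO, and later erythroblasts exceeded early progenitors by 3.99-fold and 3.68-fold. Counted per cell, Zbtb7a peaked in late progenitors, at 4.41 UMIs in WT and 3.32 in KO, and lay at 2.66 and 1.98 in later erythroblasts. Its rise after that stage was hence a growing share of fewer detected molecules, not a growing number of them. With all gate cuts doubled, the order of the last 2 stages turned in CPM over all genes, with 126.7 and 126.6 CPM in WT and 133.5 and 110.9 in KO early and later erythroblasts.

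Myb fell at each step. Early progenitors had 207.5 CPM (201.1 to 214.0) in WT and 202.8 (195.9 to 209.9) in KO, late progenitors 115.5 (111.4 to 119.7) and 132.4 (127.6 to 137.3), early erythroblasts 28.7 (25.7 to 32.0) and 40.004 (36.9 to 43.3), and later erythroblasts 5.46 and 5.35, from 36 and 39 UMIs. Later erythroblasts were 38.0-fold (WT) and 37.9-fold (KO) below early progenitors in CPM over all genes, and log2 -4.51 and -4.43 below them without haemoglobin. No intervals of neighbouring stages overlapped in either library. The levels in erythroblasts rested largely on cells that Scrublet, a caller of doublets (droplets with more than 1 cell), picked out. They were 12.5% of early erythroblasts in WT and 14.6% in KO, had medians of 47617 and 35254.5 UMIs against 27010 and 18881 in the other cells, and held 64.4% and 59.0% of the Myb UMIs there. Without them Myb was 12.98 (WT) and 21.6 CPM (KO) in early and 2.47 and 2.67 in later erythroblasts, so that the fall was steeper. The other regulators moved less at the 4 stages without the calls, Sox6 in WT early erythroblasts the most, from 54.7 to 60.9 CPM.

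**Figure D1:**
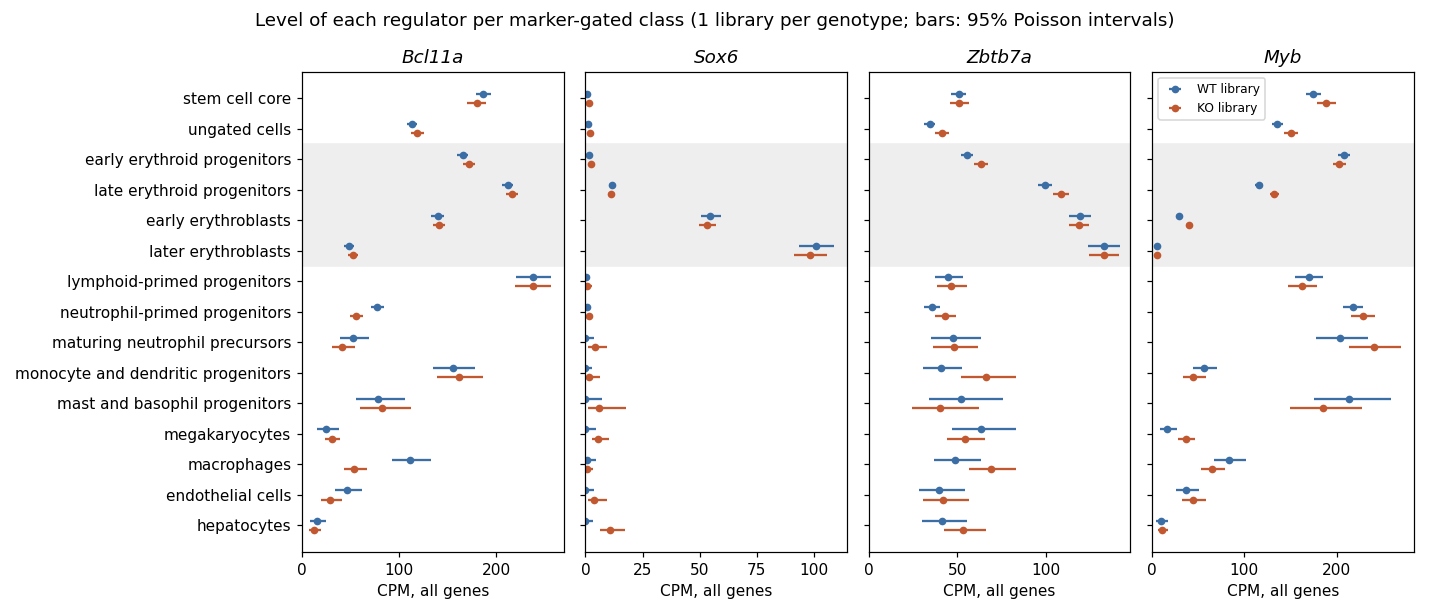
Level of each regulator (CPM over all genes, x axis) in 15 marker-gated classes (rows) of the WT and KO libraries, with 95% Poisson intervals as bars and the erythroid stages shaded. Bcl11a is highest in lymphoid-primed and late erythroid progenitors, Sox6 rises to 100.9 (WT) and 98.1 CPM (KO) in later erythroblasts, Zbtb7a rises through the shaded rows and Myb falls through them.

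Measured against all genes, such movements were common. Of 11512 genes with at least 20 UMIs, 19.2% were higher and 42.7% lower in later erythroblasts than in early progenitors in both libraries, with intervals that left out 0 on the scale without haemoglobin. All 4 regulators were among them, 2 in each direction.

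Binning the same erythroid cells by their own haemoglobin share, a scale that no gate used, gave the same directions from the first to the last bin. Haemoglobin took 0.135% (WT) and 0.160% (KO) of UMIs in early and 0.368% and 0.476% in late progenitors. These bins therefore could not set the 2 progenitor stages apart or show the rise of Bcl11a between them. From cells with under 0.5% haemoglobin to cells with over 40%, Sox6 rose without haemoglobin from 5.37 to 250.6 CPM in WT and from 4.73 to 233.1 in KO, higher in each of the 7 bins than in the one before it in both libraries. Zbtb7a went from 79.95 to 288.1 and from 85.1 to 274.2 CPM. Bcl11a stayed near its first value up to a share of 2% (194.9 and 190.2 CPM in WT, 197.2 and 201.1 in KO) and ended at 38.2 in WT and 47.8 in KO. Myb dropped early, from 169.8 CPM in the first WT bin to 43.5 in the next one, and from 179.7 to 71.3 in KO. Its further course was uneven in WT, with 26.5 CPM at 2 to 5% haemoglobin and 37.1 at 5 to 10%, while KO fell at each bin. Most of the fall in Myb thus came before haemoglobin reached 2% of a cell's UMIs, and most of the fall in Bcl11a after it.

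**Figure D2:**
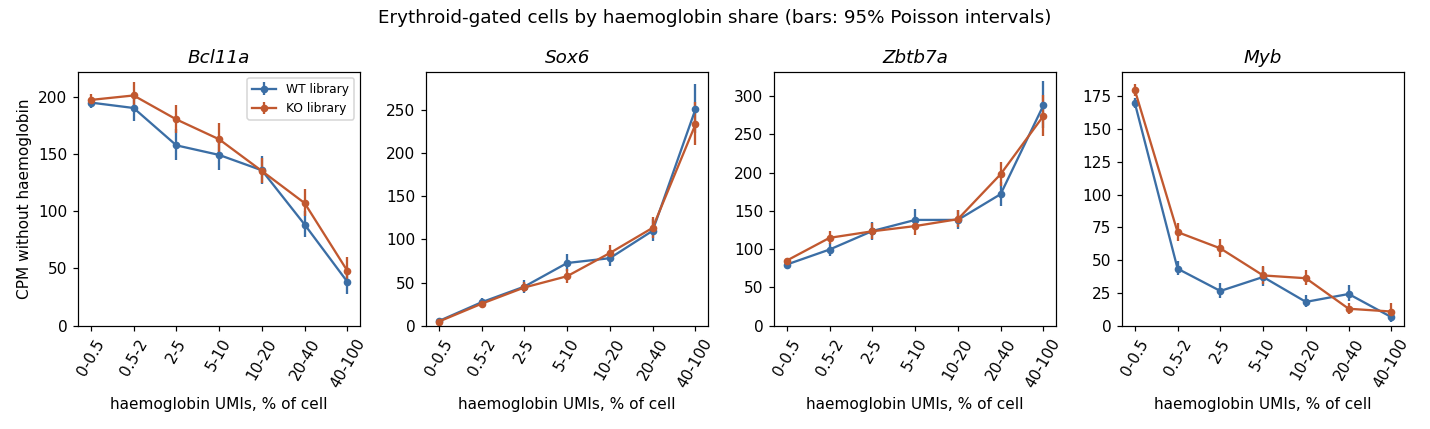
CPM without haemoglobin (y axis) of each regulator in erythroid-gated cells binned by the haemoglobin share of their UMIs (x axis, %), WT and KO libraries, with 95% Poisson intervals. Sox6 and Zbtb7a rise to 250.6 and 288.1 CPM in the last WT bin, Bcl11a falls mainly in cells with over 2% haemoglobin and Myb between the first 2 bins.

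The share of cells with a molecule of each gene depends on depth, so cells were thinned to 5000 non-haemoglobin UMIs. Bcl11a was then seen in 55.4%, 63.8%, 51.4% and 26.7% of WT cells from early progenitors to later erythroblasts, and in 57.5%, 65.4%, 48.9% and 30.4% of KO cells. Sox6 was seen in 1.12%, 5.22%, 26.0% and 51.7% of WT and 1.70%, 6.30%, 21.5% and 48.5% of KO cells. In lymphoid-primed progenitors, which should lack Sox6, 0 of 103 WT and 0 of 143 KO thinned cells held a UMI. Other classes outside the erythroid stages were not all at 0. The stem cell core had 0.333% (WT) and 0.714% (KO), and ungated cells 0.193% and 1.39%, near the shares of early progenitors in KO. Zbtb7a rose from 21.2% to 64.7% of WT and from 24.95% to 65.5% of KO cells, and Myb fell from 58.5% to 3.77% and from 58.6% to 3.34%. Thinning left out 37 WT and 129 KO later erythroblasts, and at most 10 cells of any other erythroid stage in a library. Without thinning, Sox6 was seen in 73.9% of WT and 68.6% of KO later erythroblasts, in the direction of the deeper library.

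**Figure D3:**
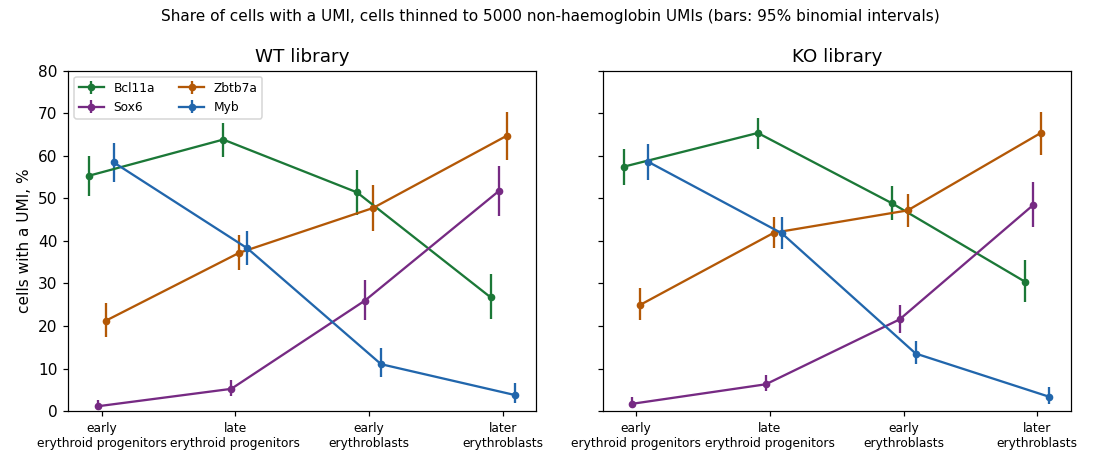
Share of cells with at least 1 UMI (y axis, %) of each regulator by erythroid stage (x axis), WT library left and KO library right, cells thinned to 5000 non-haemoglobin UMIs, with 95% binomial intervals. The Sox6 line crosses that of Myb between late progenitors and early erythroblasts and that of Bcl11a between early and later erythroblasts, ending at 51.7% (WT) and 48.5% (KO).

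Cells with UMIs of both partners were found at each stage, but they were rare in progenitors. They made up 0.670% of WT and 0.756% of KO thinned early progenitors, beside 0.333% and 0.357% in the stem cell core. Late progenitors had 3.13% and 5.15%. Thinned early erythroblasts held UMIs of both Bcl11a and Sox6 in 13.8% of WT and 11.6% of KO cells, and later erythroblasts in 12.3% and 13.4%. Among WT early erythroblasts, Sox6 was seen in 26.9% of cells with a Bcl11a UMI and 25% of those without, and in KO in 23.8% and 19.4%. In later erythroblasts the order was the other way, with 46.2% and 53.7% in WT and 44.0% and 50.4% in KO. At this depth a cell without a UMI may still hold the RNA, and these shares describe cells of 1 library each. Scrublet calls stayed in. They were 12.5% of WT and 14.6% of KO early erythroblasts, and 1.22% and 1.84% of later ones. In early erythroblasts they held 21.4% and 22.6% of the Bcl11a UMIs and 12.3% and 17.5% of those of Sox6. The part of doublets in the cells with both genes was not tested.

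Outside the erythroid stages, the regulators marked different cells. Bcl11a was highest of all classes in lymphoid-primed progenitors, at 237.8 CPM in both libraries (220.1 to 256.6 in WT, 219.7 to 256.9 in KO), although in KO this interval overlapped that of late erythroid progenitors. The stem cell core, cells with Hlf, Mecom, Procr and Fgd5, had 186.8 and 179.7 CPM. Monocyte and dendritic progenitors had 155.5 and 161.3 CPM, with intervals that overlapped those of early progenitors and early erythroblasts. At the low end were megakaryocytes with 24.8 and 30.4 CPM and hepatocytes with 15.1 and 12.2. Endothelial cells had 46.7 CPM in WT, yet all 47 UMIs came from 5 cells and 31 from a single one.

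Myb was highest in neutrophil-primed progenitors (217.5 CPM in WT, 228.1 in KO), maturing neutrophil precursors (203.8 and 240.6), early erythroid progenitors and, in WT, mast and basophil progenitors (213.8 in WT, 185.5 in KO). Of these 4 classes, neighbours in the order overlapped in WT, and in KO neutrophil-primed progenitors (215.3 to 241.5) lay above early erythroid progenitors. The stem cell core had 174.8 and 188.7 CPM. Monocyte and dendritic progenitors had 56.4 and 44.9 CPM, below every other progenitor class. Later erythroblasts had the lowest Myb of all classes in both libraries, beside hepatocytes at 9.44 and 10.9 CPM, whose intervals overlapped theirs.

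Zbtb7a was found in every class, from 34.4 CPM in ungated WT cells to 69.2 in KO macrophages outside the erythroid stages, and most of these classes could not be ranked because their intervals overlapped. Late progenitors and both erythroblast stages lay above all other classes in both libraries. Sox6 outside the erythroid stages had at most 17 UMIs in a named class. It stood at 0.734 (WT) and 1.74 CPM (KO) in the stem cell core, and at 0 UMIs in 6 WT classes, where a floor of 3 UMIs lay between 2.25 and 5.99 CPM. KO hepatocytes had 10.9 CPM from 17 UMIs, against 0 of WT, and in the same cells Klf1 had 36 UMIs against 1. KO megakaryocytes had 11 Sox6 UMIs against 0, of which 6 were in 1 cell. Sox6 had 48.6 UMIs per 100 of Slc4a1 and Alas2 in KO hepatocytes and 18.97 in KO megakaryocytes, against 66.5 in late progenitors, 12.4 in early and 8.36 in later erythroblasts of KO. The part of erythroid RNA in these values was not tested further.

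Over the 9 classes with at least 50 cells in both libraries, Sox6 and Zbtb7a had the most similar course (Pearson r of log2(CPM + 1) 0.95 in WT and 0.91 in KO). Sox6 and Myb had r of -0.76 and -0.86, and Bcl11a and Sox6 -0.17 and -0.22. These values describe classes that share a library and differ in depth. Among 7301 genes with at least 20 CPM in a class, those most alike to Bcl11a were Ikzf1 (0.94 in both), a lymphoid zinc finger factor, then Xrcc6, AU020206, Smc3 and Ezh2. For Sox6 they were Apol8 (0.99 in both), Samd11, Yod1, Fhdc1 and Trim10. For Zbtb7a they were Dek (0.97 and 0.98), a chromatin protein, Fth1, a ferritin subunit, Ubac1, Gpsm2 and Mkrn1. For Myb they were Dus3l (0.99 in both), Nudc, Rnaseh1, Cdk6, a cell cycle kinase, and Tmem219.

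The KO and WT libraries were then compared for each regulator within stages set by the same gate cuts. Over all cells Bcl11a had 149.9 CPM in WT and 144.8 in KO, Sox6 15.6 and 19.7, Zbtb7a 72.9 and 81.7, and Myb 128.6 and 125.8, values that also depend on how many cells of each stage a library holds. Within a stage, no regulator with at least 100 UMIs differed between the libraries by a log2 of 0.5 or more, although Myb in early erythroblasts did so without Scrublet calls (0.73). This was 0 of 3 genes in early progenitors, where 2.61% of all genes passed that size, 0 of 4 in late progenitors (3.50%), 0 of 4 in early erythroblasts (3.26%) and 0 of 3 in later erythroblasts (3.51%). Intervals that left out 0 were found for 1 of 3 in early progenitors (18.0% of all genes), 2 of 4 in late progenitors (20.9%), 1 of 4 in early erythroblasts (17.7%) and 0 of 3 in later erythroblasts (17.4%).

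Bcl11a and Sox6 were close in WT and KO from late progenitors to early erythroblasts. The log2 KO/WT of Bcl11a was 0.05 (-0.02 to 0.13) in early progenitors, 0.03 (-0.03 to 0.09) in late progenitors, 0.01 (-0.08 to 0.10) in early erythroblasts and 0.13 (-0.09 to 0.35) in later erythroblasts. For Sox6 it was -0.04 in late progenitors (-0.29 to 0.21), early erythroblasts (-0.19 to 0.12) and later erythroblasts (-0.20 to 0.11), and in early progenitors 0.67 (-0.06 to 1.42) from 29 and 39 UMIs. That last value turned to -0.55 (-1.43 to 0.29) in Louvain clusters, so the direction at this stage was not determined. For both genes the intervals in early erythroblasts left out differences of more than 0.2 on the log2 scale, as far as counting error goes. Bcl11a in later erythroblasts moved to 0.51 with all gate cuts doubled and to 0.39 in cells with at least 2000 genes.

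Zbtb7a was higher in KO in progenitors, by log2 0.19 (0.06 to 0.31) in early and 0.12 (0.04 to 0.20) in late progenitors, and differed by -0.01 (-0.11 to 0.10) and 0.00 (-0.13 to 0.13) in early and later erythroblasts. The late progenitor interval included 0 with doubled cuts (0.06), in Louvain clusters (0.08) and when the cells of both libraries were limited to those with Xist and no Y-linked UMIs (0.08).

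Myb showed the largest difference of the 4 genes among the erythroid values with at least 100 UMIs. From 337 WT and 598 KO UMIs, its log2 KO/WT in early erythroblasts was 0.48 (0.28 to 0.68), after 0.20 (0.12 to 0.27) in late progenitors and -0.03 (-0.10 to 0.03) in early progenitors. In later erythroblasts, with 75 UMIs in all, it was -0.03 (-0.72 to 0.67). Other progenitor genes, those of the neutrophil lineage among them, moved in the same cells. In early erythroblasts Kit had 9.71 CPM in WT and 14.2 in KO, Gata2 2.56 and 6.36, and the 6 neutrophil-primed markers, all with UMIs in both libraries, summed to 60.2 and 75.1 CPM. Within the KO library, early erythroblasts with Xist and no Y-linked UMIs (426 cells) had 42.5 CPM of Myb without haemoglobin, and those with Y-linked UMIs and no Xist (120 cells) had 24.5, log2 -0.80 (-1.23 to -0.39), while the WT level on that scale was 31.5. Kit differed likewise in these KO cells, at 14.8 and 8.73 CPM. With only the Y-linked KO cells against all WT cells, Myb in early erythroblasts turned to log2 -0.37 (-0.80 to 0.04), with only the Xist cells it was 0.42, with Scrublet calls left out it was 0.73, and in Louvain clusters it was 0.10 (-0.36 to 0.56). Without Scrublet calls, however, the 2 sets of KO cells had 22.7 and 21.98 CPM of Myb, log2 -0.05 (-0.54 to 0.43), and 6.42 and 5.49 of Kit, so the difference between them was seen only with the calls included. The genotypes had 12.98 (WT) and 21.6 CPM (KO) without the calls. The parts of doublets, embryo and stage composition in the genotype difference were not tested.

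The haemoglobin bins gave the same uneven picture for Myb. Its log2 KO/WT was 0.08 in cells with under 0.5% haemoglobin, 0.71 (0.49 to 0.94) at 0.5 to 2%, 1.16 (0.81 to 1.52) at 2 to 5%, 0.04 at 5 to 10%, 0.996 at 10 to 20% and -0.90 (-1.50 to -0.32) at 20 to 40%. Without Scrublet calls the first 3 values were 0.08, 0.69 (0.45 to 0.93) and 1.95 (1.39 to 2.55), the last from 31 WT and 167 KO UMIs, and the intervals of the 4 bins above 5% all included 0. A higher KO level at 0.5 to 5% haemoglobin was thus seen with and without the calls, and the values at higher haemoglobin were not. In the same bins, Kit had 0.53 at 0.5 to 2% and 0.79 at 2 to 5% (0.59 and 1.91 without the calls). Gata2, a factor of early progenitors, went from 3 WT to 16 KO and from 2 to 31 UMIs. At 5 to 10%, where Myb had 0.04, both were still higher in KO. Kit had 1.03 (0.43 to 1.65) there, or 1.90 without the calls, and Gata2 went from 14 to 44 UMIs. Over the 7 bins the log2 KO/WT lay between -0.34 and 0.11 for Sox6, between -0.01 and 0.32 for Bcl11a and between -0.09 and 0.21 for Zbtb7a.

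**Figure D4:**
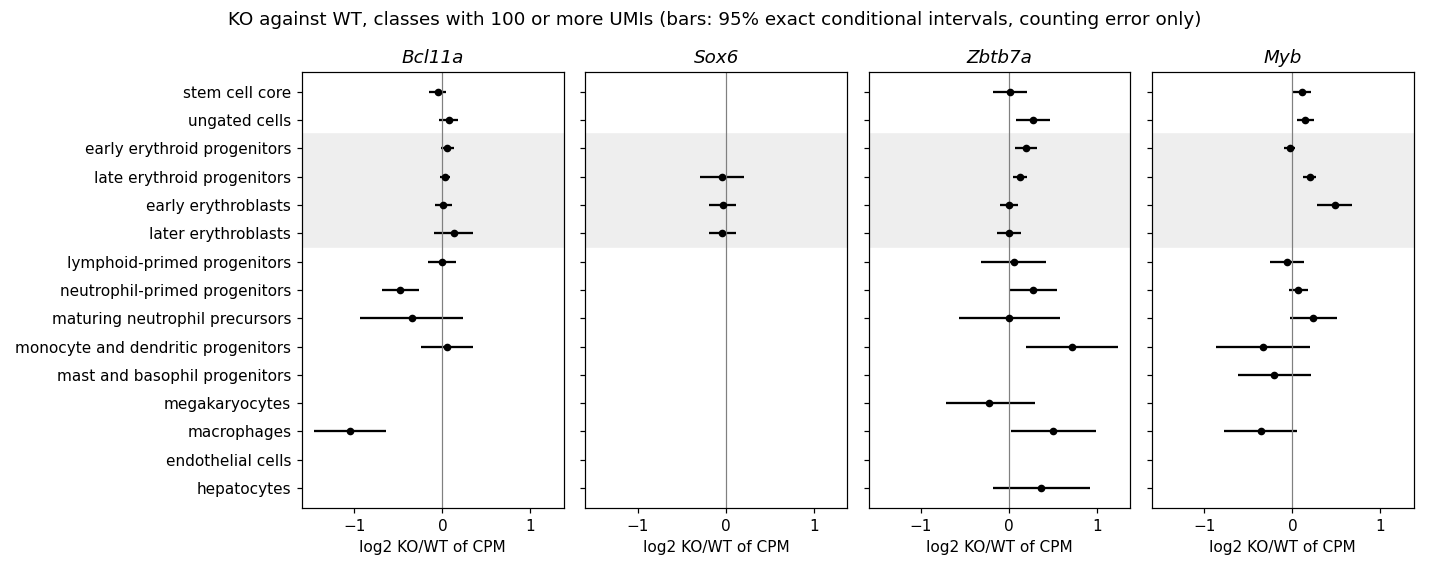
log2 KO/WT of CPM (x axis) for each regulator in classes (rows) where it had at least 100 UMIs in both libraries together, with 95% exact conditional intervals that cover counting error only; erythroid stages are shaded. Bcl11a and Sox6 lie at 0 in the shaded rows within their intervals, Myb is at 0.48 in early erythroblasts, and Bcl11a is at -0.48 in neutrophil-primed progenitors and -1.05 in macrophages.

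In the other 11 classes, 24 values of the regulators rested on at least 100 UMIs. Of these, 8 had intervals that left out 0 (16.4% of all genes in the same classes), 6 higher and 2 lower in KO, and 3 passed a log2 of 0.5 in size (5.30%). In the stem cell core the log2 KO/WT was -0.06 (-0.16 to 0.04) for Bcl11a, 0.01 (-0.18 to 0.20) for Zbtb7a and 0.11 (0.01 to 0.21) for Myb. Both lower values were of Bcl11a. In neutrophil-primed progenitors it had 77.6 CPM in WT and 55.7 in KO, log2 -0.48 (-0.69 to -0.27), where 3.02% of genes passed 0.5 in size and 14.8% left out 0. Macrophages had 111.5 and 53.9 CPM, log2 -1.05 (-1.46 to -0.64), where 15.0% of genes passed 0.5 in size and 27.2% left out 0. The macrophage value came from 37 and 84 cells, and 5 cells of each library held 53.1% of the WT and 47.1% of the KO Bcl11a UMIs. Median depth was 33185 UMIs in WT and 16579 in KO macrophages. Thinned to 5000 non-haemoglobin UMIs, 28.6% (14.6 to 46.3) of WT and 18.2% (10.3 to 28.6) of KO macrophages held Bcl11a, with overlapping intervals. The alternative settings for log2 KO/WT were run on the erythroid stages and the stem cell core, not on the other classes. Zbtb7a was higher in KO in monocyte and dendritic progenitors (0.71, 0.19 to 1.24) and in macrophages (0.50, 0.03 to 0.99), from 54 and 77 and from 57 and 109 UMIs. Among monocyte and dendritic progenitors 6.30% of genes passed 0.5 in size and 13.8% left out 0.

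The globin genes that these factors regulate were read in the same cells. Adult globins dominated. In later erythroblasts Hbb-bs had 180793 CPM in WT and 203808 in KO, Hbb-bt 82682 and 75760, Hba-a1 89484 and 99146, and Hba-a2 49454 and 52972, where the split between near-identical copies is uncertain. The embryonic genes were rare, with Hbb-y at 2.88 and 3.98 CPM from 19 and 29 UMIs, Hba-x at 27.5 and 9.33, and Hbb-bh2 with 1 UMI in WT and 0 in KO. Outside the erythroid stages, Hbb-y had 1.93 and 1.07 CPM in the stem cell core and 3.43 and 8.88 in macrophages (4 and 14 UMIs). Hba-x had 2.57 and 0.635 CPM in macrophages. The part of free RNA in these levels was not tested. Hbb-bh1, an embryonic beta-type gene, had 24.96 (WT) and 30.5 CPM (KO) in early erythroblasts and 333.4 (2197 UMIs) and 102.2 CPM (745 UMIs) in later erythroblasts. Its UMIs in later erythroblasts were concentrated in few cells, as 5 cells held 61.1% of the WT and 63.6% of the KO UMIs, and the highest cells had 560 and 201. In later erythroblasts, 69 of 329 WT cells and 68 of 488 KO cells held at least 1 Hbb-bh1 UMI, and 27 and 12 cells held at least 10.

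The 3 silencers were then read in later erythroblasts with and without an Hbb-bh1 UMI. Such cells were 20.97% of later erythroblasts in WT and 13.9% in KO, against 0.489% and 0.511% in the stem cell core, where medians were 16893 and 11752 UMIs per cell against 18822 and 14115. Bcl11a was lower in WT cells with Hbb-bh1, at 55.4 CPM without haemoglobin (40.7 to 73.7) against 87.5 (77.3 to 98.5) in cells without it, and in KO it was 97.8 (74.5 to 126.2) against 91.6, with overlapping intervals. Sox6 was 175.7 against 167.1 CPM in WT and 149.2 against 176.7 in KO, with overlapping intervals. Zbtb7a was 253.6 against 213.8 in WT and 227.1 against 234.6 in KO, again with overlapping intervals. In cells with at least 10 Hbb-bh1 UMIs, Bcl11a was 55.7 CPM in WT and 82.3 in KO, from 18 and 9 UMIs. The same split of early erythroblasts gave 152.6 CPM of Bcl11a with and 153.4 without an Hbb-bh1 UMI in WT. In KO it gave 162.0 and 154.9, and the intervals overlapped in both libraries. A lower Bcl11a level in cells with Hbb-bh1 was thus seen only in WT later erythroblasts.

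Other genes of the switch were counted as lists. Among 22 corepressors that work with BCL11A and ZBTB7A, such as the NuRD subunits, 4 were higher and 14 lower in later erythroblasts than in early progenitors in both libraries, beside 19.2% and 42.7% of all genes. Of 12 activators and looping factors of the beta-globin locus, 8 were higher and 4 lower. Klf1, the erythroid member of the KLF factors, was higher (303.1 to 707.0 CPM without haemoglobin in WT, 283.3 to 676.5 in KO). Klf1 and Gata1 of this list were also markers of the erythroid gate, so their levels at these stages depend in part on that gate. Of 12 regulators upstream of the 4 genes, 2 were higher and 7 lower, and of 7 near relatives, of which 3 had enough UMIs, 1 was higher and 0 were lower. That relative was Mybl2, a cell cycle member of the MYB family, at 42.9 and 76.5 CPM in WT and 40.9 and 73.7 in KO, and thus without the fall of Myb.

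Between genotypes, the shares of corepressors, activators and upstream regulators with a higher level in KO lay above those of all genes at the first 3 stages, with medians near 0. The UMIs behind list genes and all genes were not matched. In early progenitors, 5 of 22 corepressors had intervals above and 1 below 0, beside 9.88% and 6.28% of all genes, with a median log2 KO/WT of -0.02 against 0.02 for all genes. Counts above and below were 6 and 1 in late progenitors (12.8% and 6.63% of all genes), 7 and 1 in early erythroblasts (10.0% and 5.72%) and 0 and 2 in later erythroblasts (3.68% and 9.67%). For the activators the counts were 5 and 1, 4 and 2, 4 and 1, and 0 and 3 at the same stages, and for the upstream regulators 4 and 0, 5 and 0, 3 and 1, and 1 and 2. No near relative left out 0 at any of the 4 stages. All 12 medians of these 3 lists lay between -0.08 and 0.13. Hdac1, a histone deacetylase of NuRD, was lower in KO at each stage, by -0.39 (95.1 to 72.7 CPM), -0.49 (116.6 to 83.2), -0.42 (108.4 to 80.9) and -0.34 (61.8 to 48.9). Hdac2, the other deacetylase of the complex, had 91.9 and 89.1, 95.6 and 90.8, 67.1 and 68.2, and 26.9 and 25.2 CPM in WT and KO at the 4 stages. Hmga2, an architectural factor of fetal stem cells, was higher by 0.29 in early and by 0.78 (0.58 to 0.98) in late progenitors, from 14.0 to 24.1 CPM, and Igf2bp1, a fetal RNA-binding protein downstream of LIN28B, by 0.30 in late progenitors and 0.28 in early erythroblasts. Prmt5, an arginine methyltransferase, was higher by 0.45 (0.27 to 0.63) in early erythroblasts. In later erythroblasts Klf1 was lower by -0.14 and Nfe2, a further globin activator, by -0.18, where the median of all genes with at least 100 UMIs was -0.05.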

How the data were processed

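A WT and a KO library were made with a 3' single-cell kit from sorted LSK cells of fetal liver. Reads were processed by the authors with Cell Ranger 6.0.0 (submitters' processing notes) on GRCm38 (mm10), and the deposited values are unnormalized UMI counts of 3840 WT and 4928 KO barcodes. The annotation release was not given in the sources used here, and gene positions were taken from GENCODE vM21. UMIs come from transcript ends and were not divided by gene length.

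A cell needed 1000 detected genes and a mitochondrial share of UMIs of no more than 20%, which removed 382 WT and 511 KO barcodes. Classes were gated in Python 3.11.15 (numpy 2.4.6, pandas 2.3.3) on summed CPM of markers over non-haemoglobin UMIs. The erythroid gate was Gata1, Klf1 and Epor at 200 or more, late progenitors Tfrc, Rhag, Hemgn and Mrap at 300, and erythroblasts a marker set with Slc4a1 and Alas2 at 300 (later: 2000), of which 1 item is not reported here. Class names were built here from marker levels and need not match the clusters of the study. Cells in gates of more than 1 lineage (59 WT, 118 KO) were in no class, and doublet calls (Scrublet in scanpy 1.11.5, expected rate 5%) stayed in.

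The design gave no p-value, as each genotype had 1 library. Summed UMIs of a class were given as CPM with exact Poisson intervals. Ratios had exact conditional (Clopper-Pearson) intervals and shares exact binomial ones (scipy 1.17.1). Only the intervals of ratios were tried on simulated data. Those counts were drawn with Poisson error alone, so the trial checks the calculation and not the spread between cells or embryos. Stage and genotype counts of all genes used genes with at least 20 or 100 UMIs, as stated with each. The floor for a count of 0 was 3 UMIs.

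The regulators and gene lists were chosen with earlier results of these data known, and the gate cuts were set after marker levels had been seen. Named genes are the regulators, Nfkbia, globins with UMIs, per list and stage up to 2 genes at 20 CPM or more with the largest absolute log2 KO/WT, and per regulator the 5 genes with the highest lower r of both libraries. Klf1 and Mybl2 across stages and Klf1 in hepatocytes were named after their values were seen, as were Kit, Gata2 and Hdac2. Alternatives were Louvain clusters (Seurat 5.3.0, R 4.3.3), doubled cuts, a minimum of 2000 genes, doublet removal, other scalings and thinning depths, at most 10% mitochondrial UMIs, and only cells with Xist and no Y-linked UMIs in both libraries. Some further ones were chosen after seeing the data: KO cells with Y-linked UMIs only, leaving out the 5 cells with most UMIs of a gene, and the stage order, haemoglobin bins and KO cell sets without Scrublet calls.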

Additional observations from a re-analysis of the deposited data

How the results depend on the processing

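No paired analysis was possible because there was 1 library per genotype and both carry the replicate number 1. No library could be left out either. The order of the stages was also read in clusters, with doubled cuts, without Scrublet calls and without haemoglobin, mitochondrial and ribosomal protein genes. It was kept for each gene in these settings except Zbtb7a with doubled gate cuts. Under the other alternatives the order was not read. Of the log2 KO/WT values at the 5 main classes, those that left their counting interval were the following, and the cause was not tested. With doubled cuts, Bcl11a had 0.11 in early and 0.51 in later erythroblasts, Zbtb7a -0.19 in later erythroblasts, and Myb 0.0550 in early and 0.29 in late progenitors. With at least 2000 genes, Bcl11a in later erythroblasts had 0.39. In Louvain clusters, Sox6 in early progenitors had -0.55, Zbtb7a in the stem cell core -0.25, and Myb 0.12 in early progenitors and 0.10 in early erythroblasts. Without Scrublet calls, Myb in early erythroblasts had 0.73. With KO cells limited to those with Y-linked UMIs and no Xist, Myb in early erythroblasts reversed to -0.37, and Myb had 0.12 in late progenitors, -2.48 in later erythroblasts (1 UMI in KO) and 0.32 in the stem cell core. In the same setting Bcl11a had 0.0823 in the stem cell core, Sox6 0.18 in early erythroblasts, and Zbtb7a 0.22 in late progenitors, -0.14 in later erythroblasts and 0.28 in the stem cell core. Without the 5 cells with most UMIs, Myb in later erythroblasts had 0.68.

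The log2 ratio of later erythroblasts to early progenitors, in WT and KO, became -1.03 and -1.01 for Bcl11a, 5.28 for Sox6 (WT) and 1.44 for Zbtb7a (WT) in clusters. With doubled cuts it became -3.64 and -3.19 (Bcl11a), 4.74 and 4.22 (Sox6), and 0.87 and 0.47 (Zbtb7a). Without haemoglobin, mitochondrial and ribosomal protein genes it became -1.08 and -0.92 (Bcl11a), 6.76 and 6.13 (Sox6), 1.96 and 1.85 (Zbtb7a), and -4.54 and -4.46 (Myb). Without Scrublet calls the ratio of Myb became -6.45 and -6.28, and those of the other genes stayed within their intervals. In the same setting 29 of 58 globin levels left their narrow counting intervals, by factors from 0.845 (Hbb-bh1, WT early erythroblasts) to 1.21 (Hba-x, KO early erythroblasts).

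When these 3 gene groups were taken out of the total (haemoglobin, mitochondrial, ribosomal protein), levels in WT and KO were 320.2 and 326.1 CPM for Bcl11a in late progenitors, 251.4 and 257.8 for Sox6 and 330.8 and 348.6 for Zbtb7a in later erythroblasts, and 317.4 and 308.8 for Myb in early progenitors. Means over cells gave 205.3 for Bcl11a in WT late progenitors and 214.6 and 215.1 for Myb in early progenitors. With at least 2000 genes, KO later erythroblasts had 106.2 (Sox6) and 148.3 CPM (Zbtb7a). Clusters gave 90.6 for Sox6 in KO later erythroblasts and 216.0 and 235.0 for Myb in early progenitors, and without Scrublet calls Myb was 216.9 in WT early progenitors. Without thinning, cells with a UMI made up 97.8% and 97.6% (Bcl11a, late progenitors), 73.9% and 68.6% (Sox6) and 84.5% and 77.0% (Zbtb7a, both later erythroblasts), and 94.96% and 93.8% (Myb, early progenitors). Thinned to 2500 UMIs, these were 38.8% and 42.8%, 35.2% and 35.6%, 35.5% and 41.7%, and 35.5% and 38.8%. Over all 4 lists together, the counts of genes with intervals that left out 0 stayed within 1.5 times with at least 100 UMIs and with median-of-ratios scaling.

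Embryos were pooled, so differences between embryos of a genotype cannot be told apart from those between genotypes. Sox6 in early progenitors and Myb in later erythroblasts rest on under 100 UMIs in both libraries together, and a difference of the size seen for other genes was not detectable there.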
